A study of Rattus norvegicus with 14 samples.

Results

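The cytosolic ribosomal protein genes encode the protein part of the 80S ribosome, and their transcripts were followed here in rat hippocampus across control, PTZ and PTZ+Q808. A gene was included when its symbol began with Rpl or Rps and a digit, or was Rpsa, Rplp0, Rplp1 or Rplp2, without S6 kinase genes, pseudogene names or copies named for X or Y, and when it reached an FPKM of 1 in at least 4 of 14 libraries. FPKM is a fragment count scaled by transcript length and by the number of mapped fragments of the library. Of 86 symbols that matched, 81 reached that level, out of 12744 genes tested and 22601 listed. They comprise 28 small subunit genes, 42 large subunit genes, 3 stalk genes, 7 paralogs of subunit genes (symbols such as Rpl39l) and Rps19bp1, whose product binds a ribosomal protein and is not itself part of the ribosome.

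The study sequenced mRNA captured from hippocampal total RNA of wild-type Wistar rats of 180 to 220 g. Control rats received vehicle (n = 4 libraries), and PTZ rats were a seizure model that received vehicle (n = 5 libraries). PTZ+Q808 rats were the same model given the compound Q808 (n = 5 libraries). The convulsant PTZ (pentylenetetrazole) acts by blocking GABA-A receptors, and Q808 is a compound known by its code name. Dose, time after seizure, age and sex are not given in the sources used here. All libraries come from whole tissue, so fewer cells of a type and less RNA per cell cannot be told apart. The labels number the samples within a group and do not tie a number to an animal, so p-values measure the spread between these samples.

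Each ribosome holds a single copy of most of these proteins, and cells keep their mRNAs at matched, high levels. Many ribosomal protein mRNAs begin with a C and a run of pyrimidines, the 5′ terminal oligopyrimidine (TOP) tract, through which mTORC1 signalling controls their translation. In neurons ribosomes are found in the cell body and along dendrites, where local translation accompanies lasting changes of synapses. Control of these mRNAs at the level of translation need not show in mRNA abundance.

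The 14 libraries were alike in depth. The sum of FPKM ran from 383126 to 419358, and relative depth, read from the steps between FPKM values under 1, ran from 0.874 to 1.06 of the median library. Marker lists showed which tissue each library held. Summed markers of pyramidal and granule neurons ran from 1973 to 2581 FPKM. Summed choroid plexus markers ran from 105 to 7796 FPKM, with control 3, PTZ 2 and PTZ+Q808 1 at 105, 184 and 402 FPKM. Control 2 held 490 FPKM of striatal markers against 43.5 to 62.9 elsewhere, and PTZ+Q808 3 held 686 FPKM of pituitary markers against 2.57 to 12.6 elsewhere. Summed meninges and fibroblast markers ran from 52.7 to 71.5 FPKM in 9 libraries and were higher in PTZ 1 and 2 (178 and 109) and PTZ+Q808 1 to 3 (125 to 135). Sex is not in the labels, and Y-linked transcripts summed to 26.8 to 40.4 FPKM in 8 libraries and to at most 0.589 in 6, namely control 3 and 4, PTZ 3 and 4, and PTZ+Q808 3 and 5. These libraries are named below wherever a result touches them.

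The start regions of the genes show the feature by which this family is best known. RefSeq promoter records of the GRCr8 build were matched for 63 of the 81 genes, 57 of them subunit or stalk genes. The windows below hold 40 bases before and 20 bases from the RefSeq start of 7 genes, 4 that come up in the comparison of PTZ+Q808 with control and the 3 stalk genes. Capitals mark the longest run of a C followed by at least 4 bases that are C or T, searched on the gene's strand from 30 bases before to 10 bases after the start.
Rps3a (chr2:173827023-173827082, minus strand): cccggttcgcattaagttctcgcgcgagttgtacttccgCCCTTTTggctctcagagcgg
Rpl5 (chr14:1995206-1995265, minus strand): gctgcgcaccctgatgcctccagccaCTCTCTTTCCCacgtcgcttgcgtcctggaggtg
Rps15 (chr7:10068096-10068155, minus strand): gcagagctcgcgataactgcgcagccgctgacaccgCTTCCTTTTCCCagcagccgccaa
Rpl34 (chr2:221962264-221962323, minus strand): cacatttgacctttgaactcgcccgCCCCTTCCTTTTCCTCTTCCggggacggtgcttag
Rplp0 (chr12:46718371-46718430, minus strand): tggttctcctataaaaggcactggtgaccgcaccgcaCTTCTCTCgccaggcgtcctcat
Rplp1 (chr8:71290853-71290912, minus strand): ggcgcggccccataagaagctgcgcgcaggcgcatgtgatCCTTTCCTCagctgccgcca
Rplp2 (chr1:205975881-205975940, plus strand): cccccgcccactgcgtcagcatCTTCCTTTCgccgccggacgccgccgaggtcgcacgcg

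A C followed by at least 4 pyrimidines, also where it lies inside a longer run, began within 5 bases of the start in 36 of the 57 subunit and stalk genes (63.2%), against 17% of all 33469 promoters. At the start base itself it was found in 22 of 57 (38.6%), against 2.63% of all promoters. Among the 7 shown, Rplp1 has its run at the start base, Rplp0, Rps15, Rpl34 and Rps3a have runs that span it, and in Rpl5 and Rplp2 the run lies upstream, from positions -14 and -18. In the whole region from 250 bases before to 50 after the start, searched on both strands, GGGCGG occurred in 33 of 57 (57.9%, against 33.1%), CCGGAAG in 17 (29.8%, against 8.75%) and TATAAA in 6 (10.5%, against 14.2%). These matches describe the letters of the windows and were not tested against the expression values.

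Most ribosomal protein genes stood among the most abundant transcripts of the tissue. On the FPKM scale, which is per length, their median was 269.6 (middle 50% from 164 to 346), against 9.70 for all tested genes, and 68 of the 81 had a mean of at least 100 FPKM. Small and large subunit genes were close to each other, with medians of 309 and 265 FPKM. Together the 81 genes made up 5.55% ± 0.204 of all FPKM in control (SD, n = 4), against 5.49% ± 0.276 for PTZ (n = 5) and 5.55% ± 0.213 for PTZ+Q808 (n = 5), differences smaller than the SD within each group.

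The highest mean over the 14 libraries was that of Rps29, a zinc-binding protein of the small subunit head, at 965 FPKM. Rpl41, which encodes a very short basic peptide, followed at 764 FPKM, the stalk gene Rplp1 at 712 FPKM, Rpl31 at 572 FPKM and Rpl37 at 560.3 FPKM. Rpl31 ran from 514 to 646 FPKM over the libraries and Rpl37 from 503 to 647 FPKM, so these neighbours in the order were not separated by their spread. Rps29 ran from 833 to 1079 FPKM and Rpl41 from 623 to 911 FPKM, and their ranges overlapped as well.

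**Figure D1:**
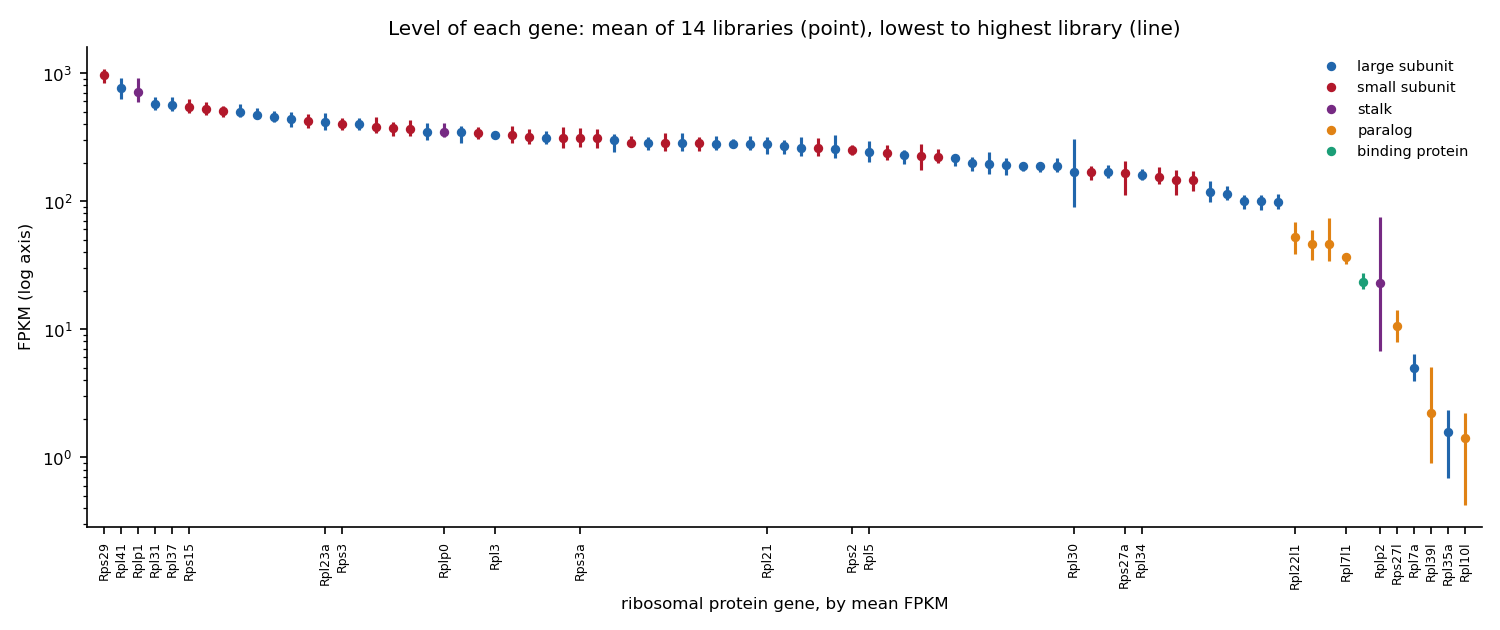
Mean FPKM of each of the 81 genes over 14 libraries (points, log axis), with lines from the lowest to the highest library, colours for the role of the gene, and names on the axis for some of the genes described. Most genes lie above 100 FPKM with short lines, while Rplp2 and Rpl30 have long lines and the paralogs, Rpl7a and Rpl35a lie at the low end.

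Low levels were found in paralogs, in a few subunit genes and in the stalk gene Rplp2, which is described below. Paralogs had a median of 36.4 FPKM. Rpl10l, known from testis, had the lowest mean of all at 1.41 FPKM, Rpl39l, also known from testis, had 2.21 FPKM, and Rps27l had 10.6 FPKM. Among subunit genes the files list far below their partners were Rpl35a at 1.57 FPKM and Rpl7a at 4.99 FPKM. Rpl10l (12 libraries at 1 FPKM or more), Rpl35a (13) and Rpl39l (13) were the members nearest to the inclusion limit of 4 libraries. The nearest symbol outside it was Rps6, the small subunit protein that S6 kinase phosphorylates, with a mean of 0.648 FPKM and 1 library at 1 FPKM or more, followed by Rpl3l at 0.329, Rpl8 at 0.152 and Rps9 at 0.0219 FPKM, with Rpl30l1 between the last 2. These low values rest on few reads. If the smallest steps of the FPKM scale are single reads, Rpl35a had 4 to 15 reads per library (median 10), Rpl10l 9 to 50, Rpl39l 8 to 46, Rps6 5 to 14 and Rps9 0 to 1.

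For several of these genes the files hold an entry described as the same protein under another symbol. RefSeq lists many such entries as pseudogenes. The gene descriptions in the files name a cytosolic ribosomal protein for 129 genes with placeholder symbols (LOC or RGD and a number), 46 of which reached the level for testing, and 48 of the 81 genes have at least 1 such copy. The copies took 0.234% of all FPKM. In most families the named gene carried nearly all of the signal, and in 11 the copies carried over 10% of it. The count of 11 and the share of all FPKM include the copy assigned to Rps27a, which RefSeq names otherwise, as given below.

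Rpl35a is the clearest case, since it held 1.77% of its family while LOC100359498 held 87.7 FPKM of a family sum of 90.1. Rps9 held 0.0669% of a family sum of 46.6 FPKM, the rest being LOC103689992, a gene identifier that RefSeq GRCr8 now names Rps9 itself. Rpl8 held 0.359% of 43.5 FPKM, a sum that includes LOC100360117, which RefSeq lists as a pseudogene (Rpl8-ps7). Rps6 held 5.55% of its family, whose sum reached 12.9 FPKM, so the S6 family remained far under the median of 269.6 FPKM even with its copy. Rps14 held 69.7% of its family, the rest being LOC100911847, which RefSeq lists as a transcribed pseudogene (Rps14-ps7). The files describe LOC100910768 as like S27a, the product of Rps27a that is made as a fusion with ubiquitin, but RefSeq names it Ubb-ps1, so no share is given for Rps27a. Which copy a read was assigned to depends on the authors' alignment and annotation, so levels of single members of these families are uncertain.

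Rpl30 encodes a large subunit protein that in yeast binds its own transcript. Rpl30 was at 95.7, 97.5, 166 and 256 FPKM in control, 189.9, 89.4, 176, 122 and 305 in PTZ, and 203, 129.9, 121, 185 and 228 in PTZ+Q808. The values spread over all 3 groups in the same way, and the groups overlapped. Its main copy LOC100362027, which RefSeq names Rpl30l2, was at 206, 232, 103 and 21.5 FPKM in control, 123, 187, 101, 226 and 31.1 in PTZ, and 126, 236, 228, 103 and 122 in PTZ+Q808. Control 4 and PTZ 5, which were lowest for the copy, were the 2 highest for Rpl30. Rpl30 alone varied 3.41-fold between its lowest and highest library (SD of the log2 value 0.55), and the sum of the L30 family varied 1.36-fold (SD 0.15). The share of Rpl30 in its family ran from 29.6% to 92.2%.

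Rplp2 encodes an acidic protein of the stalk, the arm of the large subunit that recruits elongation factors, where it pairs with the product of Rplp1. Rplp2 was at 12.4, 11.1, 9.96 and 74.9 FPKM in control, 9.45, 73.2, 12.5, 12.7 and 6.74 in PTZ, and 56.01, 11.7, 10.1, 8.49 and 10.97 in PTZ+Q808. Each group held 1 high library (control 4, PTZ 2 and PTZ+Q808 1, 56.0 to 74.9 FPKM), the other 11 libraries lay at 6.74 to 12.7 FPKM, and the groups overlapped. A gap of more than 1 log2 unit between neighbouring values separated the libraries in 1 of the 81 members and in 132 of 12744 tested genes (1.04%), and for Rplp2 the gap was 2.06. Its stalk partners showed no such gap, with Rplp0 at 315 to 407 FPKM and Rplp1 at 593 to 909 FPKM. The 1 placeholder copy of Rplp2 held under 1.5% of the family in every library, so the sum over the family kept the gap. PTZ 2 and PTZ+Q808 1 were also low in choroid plexus transcripts, while control 4 was not (4974 FPKM) and control 3, the lowest for those markers, had 9.96 FPKM of Rplp2. Over the 14 libraries the genes whose log2 values ran most nearly parallel to Rplp2 were Rap2b (Pearson r = 0.79), Rit1 (0.77) and Dnajc14 (0.77), picked as the highest of all tested genes.

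The placeholder LOC108348142, described as L8, split the libraries in a different place. It was at 15.8, 16.4, 15.6 and 13.3 FPKM in control, 70.3, 55.3, 14.1, 15.1 and 60.98 in PTZ, and 13.02, 14.8, 84.96, 15.4 and 13.5 in PTZ+Q808. PTZ 1, PTZ 2, PTZ 5 and PTZ+Q808 3 were high, and PTZ 2 was the 1 library high in both Rplp2 and this gene. The S9 gene LOC103689992 had no such gap and ran from 17.7 to 84.6 FPKM in steps across all 3 groups.

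**Figure D2:**
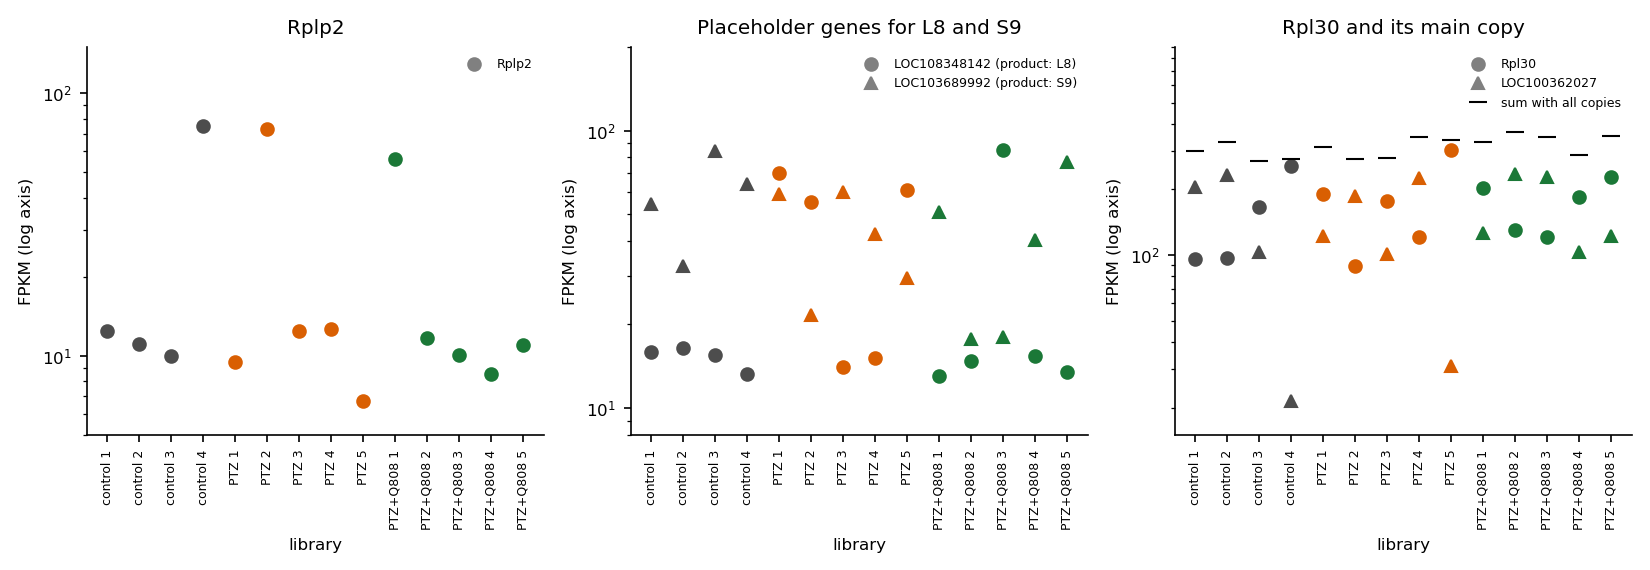
FPKM (log axes) in each of the 14 libraries, coloured by group, of Rplp2, of the placeholder genes described as L8 and S9, and of Rpl30 with its main copy and the sum over all L30 copies (black bars). Rplp2 stands at 56.0 to 74.9 FPKM in 1 library of each group, and the L30 sum varies 1.36-fold while Rpl30 alone varies 3.41-fold.

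Apart from such cases the members varied little. The SD of the log2 value over the 14 libraries had a median of 0.11 among the 81 genes, from 0.065 in Rpl3 to 1.13 in Rplp2. It was 0.12 in the 663 other genes with a mean of at least 100 FPKM and 0.15 in all tested genes. Rpl3, a core protein of the large subunit near the peptidyl transferase centre, had a control mean of 330.3 ± 14.2 FPKM (SD, n = 4), against 321 ± 17.1 for PTZ (n = 5) and 331 ± 14.7 for PTZ+Q808 (n = 5).

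In the values as deposited, what variation there was ran through most members of some libraries at once, and it did not follow the groups. The deviation of each gene from its own 14-library mean on the log2(FPKM + 1) scale was taken, and the median over members was read for each library. PTZ 4 had a median of 0.13 with 73 of 81 members above their mean, and PTZ+Q808 2 had 0.14 with 70 above. PTZ 2 had a median of -0.15 with 9 above, and PTZ+Q808 4 had -0.09 with 10 above. Control 2 had 0.10 with 63 above, and the other 3 controls lay between -0.03 and 0.01. Averaged by group, the library medians were 0.02 ± 0.055 for control (SD, n = 4), -0.02 ± 0.10 for PTZ (n = 5) and 0.02 ± 0.086 for PTZ+Q808 (n = 5), and the 3 ranges overlapped. The median of all tested genes stayed between -0.03 and 0.02.

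Both subunits moved together. In PTZ 4 all 28 small subunit genes and 40 of 42 large subunit genes were above their means, with medians of 0.14 and 0.13. In PTZ 2 the medians were -0.16 and -0.15, and in PTZ+Q808 2 they were 0.13 and 0.14. Other gene sets followed in part. Nuclear oxidative phosphorylation genes had a median of 0.17 in PTZ+Q808 2, 0.09 in PTZ 4 and -0.14 in PTZ 2, whereas they had 0.07 in control 3 and -0.05 in PTZ+Q808 3, where ribosomal protein genes had -0.01 and 0.04. Mitochondrial ribosomal protein genes had 0.17 in PTZ+Q808 2, 0.03 in PTZ 4 and -0.08 in PTZ 2.

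Depth and total moved with the shift in 2 of these 4 libraries. PTZ+Q808 2 had the lowest relative depth (0.874) and the highest FPKM sum, and PTZ 2 the highest depth (1.06) and the lowest sum. PTZ 4 and PTZ+Q808 4 had depths of 0.998 and 1.004, and PTZ 5, with a depth of 0.947, had a median of -0.01. With each library rescaled to an equal FPKM total, the medians were 0.06 in PTZ+Q808 2, 0.10 in PTZ 4, -0.10 in PTZ 2 and -0.06 in PTZ+Q808 4. With quantile normalization they were 0.03, 0.06, -0.08 and -0.03, and with median-of-ratios scaling 0.13, 0.16, -0.17 and -0.09. The 4 shifts thus kept their signs under all 3 scalings, shrank under the first 2 and changed little or grew under the last. The part of depth in the shifts was not tested. Control 2 had 0.08, 0.10 and 0.08 under the 3 scalings and was the most shifted of all libraries under quantile normalization. The part of its striatal transcripts was not tested.

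**Figure D3:**
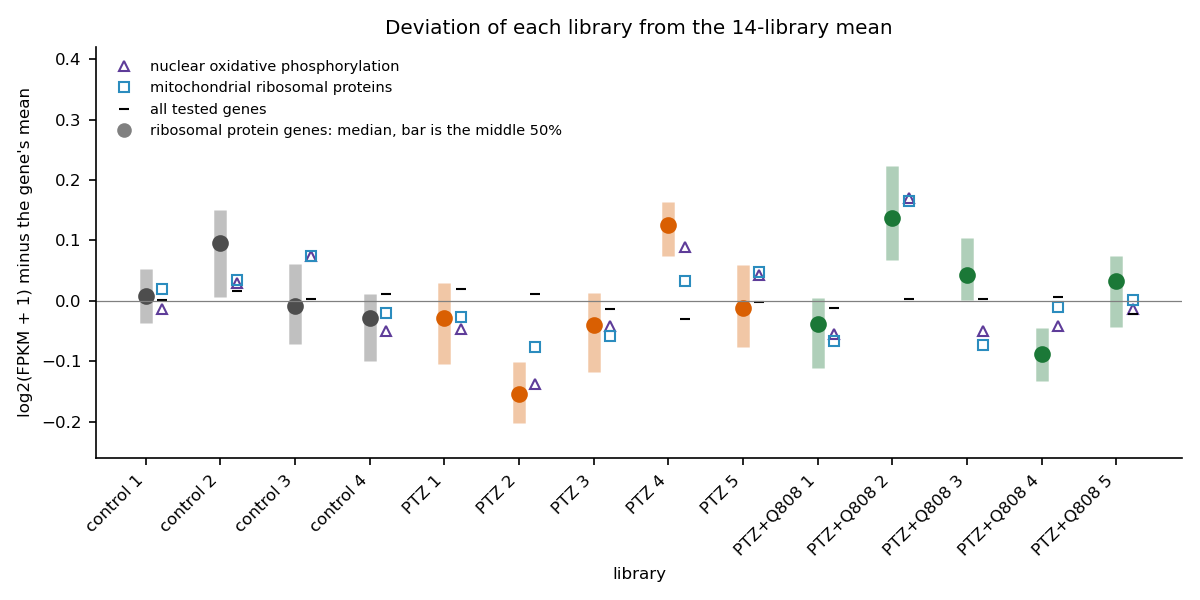
Median deviation of the 81 ribosomal protein genes in each library on the log2(FPKM + 1) scale (circles, coloured by group, with bars for the middle 50% of genes), beside medians of nuclear oxidative phosphorylation genes, mitochondrial ribosomal protein genes and all tested genes. PTZ 4 and PTZ+Q808 2 stand highest at 0.13 and 0.14 and PTZ 2 lowest at -0.15, while all tested genes stay within 0.03 of zero.

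The seizure model was first set against control. By the limma test with adjustment over 12744 genes, 0 of the 81 members changed, where 0.0314% of all tested genes (4) were called. None of the members had an unadjusted p under 0.05, against 8.11% of tested genes, and in none did the groups fail to overlap, against 3.03%. The mean was higher in PTZ for 27 of 81 members (46.3% of tested genes), namely 9 of 28 small subunit genes, 14 of 42 large subunit genes, 0 of 3 stalk genes and 3 of 7 paralogs, with Rps19bp1. The median log2 change of the members was -0.04, against -0.01 for all tested genes. Without PTZ 2 it was 0.00 with 43 members higher, and without control 2, which held striatal transcripts, it was -0.01 with 37 higher. Without PTZ 4 it was -0.07 with 12 higher. Under quantile normalization it was -0.01 with 36 higher. The 95% interval of the change lay within 1.5-fold either way for 76 of the 81 members.

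The members of smallest p are given as values. Rps2, a small subunit protein near the mRNA entry site, had 265 ± 8.79 FPKM in control and 245 ± 15.2 in PTZ (SD, n = 4 and 5), a log2 difference of -0.11 ± 0.0545 (SE, adjusted p = 0.636). Rpl27a differed by -0.10 (adjusted p = 0.648) and Rpl13 by -0.13 (0.653). In the other direction Rps3a differed by 0.15 ± 0.0887 (0.702), Rpl5 by 0.12 (0.773) and Rpl7l1, a paralog of Rpl7, by 0.04 (0.831). In all 6 the libraries of the 2 groups overlapped.

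The effect of Q808 within the seizure model was addressed by PTZ+Q808 against PTZ. Of the 81 members 0 changed (limma, 0% of tested genes called), 3 had an unadjusted p under 0.05 (6.14% of tested genes), and in 0 did the groups not overlap (0.777% of tested genes). The mean was higher in PTZ+Q808 for 62 of 81 members (48.3% of tested genes), with 18 of 28 small subunit genes, 36 of 42 large subunit genes, 1 of 3 stalk genes and 6 of 7 paralogs. The median log2 change was 0.04, against -0.00 for all tested genes, and the library medians of the 2 groups overlapped. It was 0.01 without PTZ 2 (48 members higher), 0.01 without PTZ+Q808 2 (46 higher) and 0.07 without PTZ 4 (69 higher). With equal totals it was 0.02 with 50 higher, and with quantile normalization 0.01 with 48 higher. The interval lay within 1.5-fold for 76 of 81 members.

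Rpl23a encodes a large subunit protein at the exit of the peptide tunnel. Rpl23a was at 399.5, 419.98, 394 and 359 FPKM in control, 385, 372, 358, 447 and 422 in PTZ, and 432, 484, 474, 414 and 435 in PTZ+Q808. The 3 PTZ libraries below 400 FPKM lay under all PTZ+Q808 libraries, and PTZ 4 and PTZ 5 overlapped with them. The log2 difference from PTZ was 0.18 ± 0.0696 (SE, adjusted p = 0.76). Rpl39l was at 1.32, 1.5, 3.25 and 2.52 FPKM in control, 2.21, 1.27, 1.28, 0.899 and 1.78 in PTZ, and 1.5, 1.93, 5.09, 2.01 and 4.44 in PTZ+Q808. PTZ+Q808 3 and PTZ+Q808 5 were high, the other 3 lay among the PTZ values, and control overlapped with both groups. Its log2 difference from PTZ was 0.61 ± 0.254 (adjusted p = 0.76), on values that rest on 8 to 46 reads and on a scale that the pseudocount of 1 compresses for so low a gene.

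Rpl7l1 was at 35.7, 37.6, 36.5 and 36.5 FPKM in control, 36.5, 37.8, 37.5, 37.5 and 39.2 in PTZ, and 33.97, 36.7, 32.3, 37.2 and 34.2 in PTZ+Q808. PTZ+Q808 1, 3 and 5 lay below the other 11 libraries, and PTZ+Q808 2 and 4 lay among the PTZ values. The difference was -0.11 ± 0.0442 (adjusted p = 0.76). Rpl21 differed by 0.17 (adjusted p = 0.801), Rps14 by -0.11 (0.828) and Rps3 by -0.08 (0.887).

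The comparison of PTZ+Q808 with control shares its libraries with the other 2 comparisons, so its values are given beside theirs and are not independent of them. Of the 81 members 0 changed (limma, smallest adjusted p = 0.106), where 2.87% of tested genes (366) were called. An unadjusted p under 0.05 was reached by 6 members, against 20.7% of tested genes, and the groups did not overlap in 3, against 8.91%. The unadjusted count was 14 of 81 with equal totals (20.3% of tested genes) and 14 with quantile normalization (21.5%). The mean was higher for 39 of 81 (44.7% of tested genes), the median log2 change was -0.01 against -0.02 for all tested genes and 0.02 without control 2, and the interval lay within 1.5-fold for 78 of 81.

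Rps3a, a small subunit protein that contacts initiation factors, had the smallest p of all members. Rps3a was at 269, 308, 270.04 and 263 FPKM in control, 278, 298, 271, 356 and 340.1 in PTZ, and 322, 374, 347, 299 and 333 in PTZ+Q808. The 3 lower controls lay under every PTZ+Q808 library, while control 2 exceeded PTZ+Q808 4, so the groups overlapped. The log2 difference from control was 0.27 ± 0.0887 (SE, adjusted p = 0.106), and that of PTZ from control was 0.15. With libraries weighted by their fit it was 0.28 with an adjusted p of 0.0389, the 1 alternative that called a member.

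Rpl5 forms a particle with 5S rRNA and Rpl11 that can bind Mdm2 when ribosome assembly fails. Rpl5 was at 213, 242, 207 and 204 FPKM in control, 201, 242, 208, 279 and 252 in PTZ, and 244, 294, 277, 229 and 267 in PTZ+Q808. PTZ+Q808 4 was lowest of its group and lay below control 2, while the other 4 PTZ+Q808 libraries lay above all controls. The log2 difference was 0.27 ± 0.0987 (adjusted p = 0.139). Rpl23a differed from control by 0.19 ± 0.0738 (adjusted p = 0.170), Rps24, a gene mutated in Diamond-Blackfan anaemia, by 0.22 (0.213) and Rpl21 by 0.19 (0.229). The paralog Rpl22l1 differed by 0.29 (0.254).

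Rps15 encodes a small subunit protein needed for export of the pre-40S particle. Rps15 was at 547, 630.4, 564 and 565 FPKM in control, 554, 511, 580.2, 574 and 491 in PTZ, and 504, 538, 546, 486 and 512 in PTZ+Q808. All 5 PTZ+Q808 libraries lay below all 4 controls, by a margin of less than 2 FPKM between PTZ+Q808 3 and control 1. The PTZ libraries overlapped with both groups. The log2 difference was -0.16 ± 0.0642 (adjusted p = 0.190). Rplp1 differed by -0.20 (0.275), Rps14 by -0.12 (0.277) and Rps10 by -0.22 (0.291).

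Another member without overlap had a small difference and tight controls. Rpl34, a large subunit gene, was at 155, 159, 157 and 154 FPKM in control, 149, 145, 159, 178 and 161 in PTZ, and 161, 176, 164, 162 and 167 in PTZ+Q808. Controls and PTZ+Q808 were separated by less than 2 FPKM, PTZ 1 and PTZ 2 lay below both, and PTZ 4 lay above both. The log2 difference was 0.09 ± 0.0560 (adjusted p = 0.405).

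**Figure D4:**
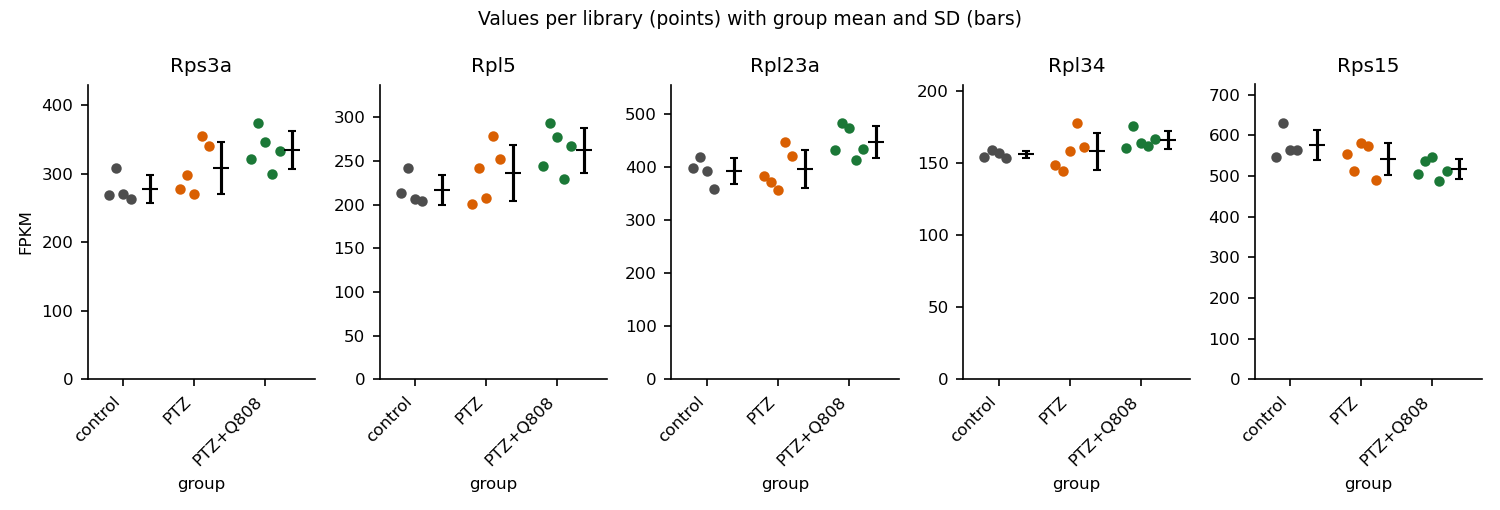
FPKM per library (points) with group mean and SD (bars, n = 4, 5 and 5) of 5 members, on axes that start at 0. Rpl34 and Rps15 have no overlap between control and PTZ+Q808, and in Rps3a, Rpl5 and Rpl23a control 2 reaches into the PTZ+Q808 range.

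The members were also compared relative to each other. When each library was centred on the median of the members, a setting added after the data had been seen, 18 of 81 had an unadjusted p under 0.05 in PTZ+Q808 against control (14% of tested genes), and 0 were called (smallest adjusted p = 0.0608). In PTZ against control 1 member had such a p (5.81% of tested genes), and in PTZ+Q808 against PTZ 6 had (3.78%). Without centring the counts were 6 (20.7% of tested genes), 0 (8.11%) and 3 (6.14%) in the same order. Centring removes the members' shared library variation by construction and puts the same offset into all other genes. The shares of tested genes under centring therefore cannot serve as a background for the members.

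**Figure D5:**
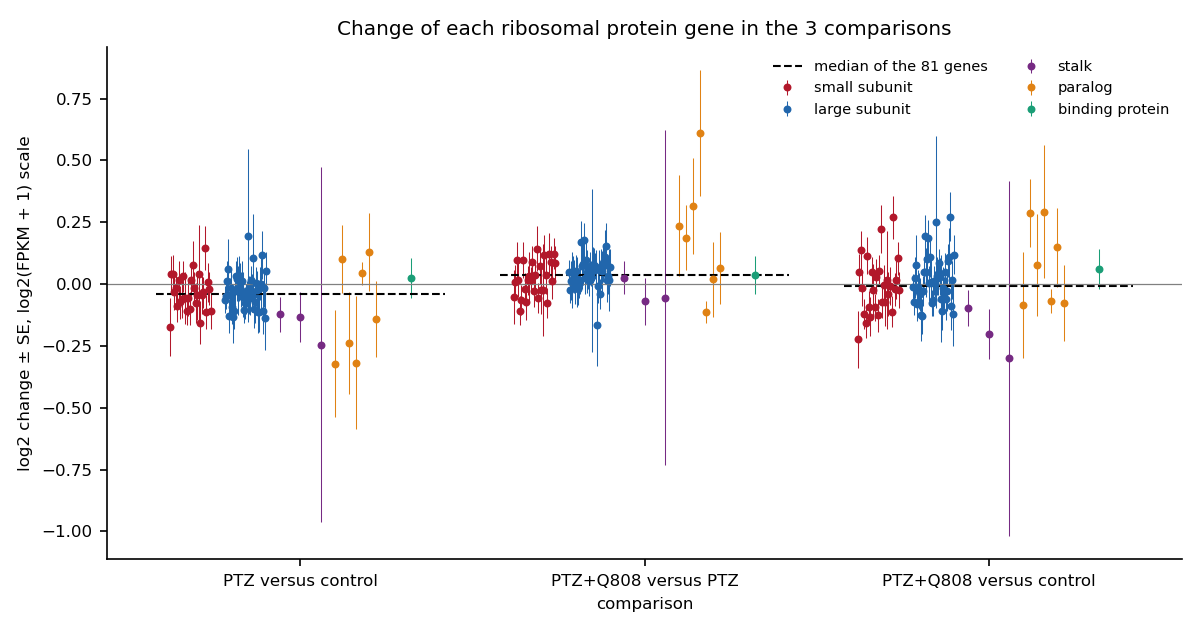
Log2 change with SE of each of the 81 genes in the 3 comparisons on the log2(FPKM + 1) scale, coloured by role, with dashed lines at the median of the 81 genes. The medians lie at -0.04, 0.04 and -0.01, and none of the changes passed the adjusted threshold.

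Genes of the ribosome outside the symbol rule likewise held no call. Of 4 such genes 0 were called in any comparison, with 0, 0 and 1 at an unadjusted p under 0.05. Among them Fau, which encodes a ubiquitin-like protein fused to a small subunit protein, had a mean of 387 FPKM, Rack1 226 FPKM and Rps4x 224 FPKM. Mitochondrial ribosomal proteins (73 tested) and nuclear oxidative phosphorylation subunits (82 tested) had 0 called in all 3 comparisons, with 11 and 10 at an unadjusted p under 0.05 in PTZ+Q808 against control, where 20.7% of tested genes had one.

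The machinery that builds ribosomes and starts translation was examined from lists drawn up for this purpose. In PTZ against control and in PTZ+Q808 against PTZ 0 genes of any list were called. In PTZ against control (8.11% of tested genes) 4 of 34 initiation factors and 1 of 13 elongation and release factors had an unadjusted p under 0.05. So had 6 of 41 small subunit assembly, 1 of 42 large subunit assembly, 0 of 9 nucleolar scaffold and 0 of 19 RNA polymerase I genes. For chaperones and p53 sensing it was 2 of 9, and for mTORC1 and S6 kinase 1 of 19. In PTZ+Q808 against PTZ (6.14%) the counts were 5, 1, 3, 4, 3, 4, 0 and 0 in the same order. In PTZ+Q808 against control 11 genes were called, all higher, where 247 of 12744 tested genes were called higher and 2.87% in either direction. They were 4 of 34 initiation factors, 2 of 13 elongation and release factors, 2 of 41 small subunit assembly genes, 2 of 9 nucleolar scaffold genes and 1 of 19 genes of mTORC1 and S6 kinase. In these lists, in the same order, 12, 2, 9, 2 and 5 genes had an unadjusted p under 0.05. Of 42 large subunit assembly genes 0 were called (10 at an unadjusted p under 0.05), and of 19 RNA polymerase I genes 0 (6). Of 9 genes of ribosomal protein chaperones and p53 sensing 0 were called (1), while 20.7% of tested genes had such a p. The lists as wholes did not all lean up. In this comparison 19 of 34 initiation factors had a higher mean, as had 6 of 13 elongation and release factors. Of small subunit assembly genes 22 of 41 were higher, of nucleolar scaffold genes 6 of 9 and of mTORC1 and S6 kinase genes 6 of 19. For large subunit assembly it was 18 of 42, for RNA polymerase I 7 of 19 and for the last list 4 of 9, against 44.7% of tested genes.

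Nop58, a core protein of the box C/D particles that methylate rRNA, was at 7.01, 7.27, 6.35 and 6.901 FPKM in control, 7.71, 9.06, 7.703, 10.2 and 8.43 in PTZ, and 10.6, 9.77, 11.4, 9.74 and 10.7 in PTZ+Q808. Every PTZ+Q808 library lay above every control, and the PTZ libraries lay above control as well and overlapped with PTZ+Q808. It was higher in PTZ+Q808 by 0.54 ± 0.0787 on the log2 scale (limma adjusted p = 0.00893). The nucleolar proteins Npm1 and Ncl, which act in rRNA processing and assembly, rose by 0.54 (adjusted p = 0.023) and 0.42 (0.0226), and Ncl went from 79.0 to 106 FPKM. Eif2s2, a subunit of the factor that carries initiator tRNA, rose by 0.47 (0.0226), Eif3a by 0.34 (0.0229), Eif3j by 0.40 (0.0409) and Eif5 by 0.24 (0.0411). Rps6kb1, the kinase of Rps6, rose by 0.33 (0.0276), Krr1 by 0.36 (0.0331), and the release and recycling factors Etf1 and Abce1 by 0.39 (0.046) and 0.23 (0.0409).

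All 11 calls ended under some of the alternatives. Nop58 remained called without each of the 14 libraries in turn (highest adjusted p = 0.0466). The calls of the other 10 genes each ended without control 1, control 3, control 4, PTZ+Q808 1 or PTZ+Q808 5, left out singly, and their highest adjusted p over such omissions was 0.0717 to 0.118. Some ended in further omissions, among them PTZ+Q808 3 for 8 genes, control 2 and PTZ 2 for 4 each, PTZ+Q808 2 for 3, PTZ 1 for 2, and PTZ 5 and PTZ+Q808 4 for 1 each. Without the 3 libraries low in choroid plexus transcripts 0 genes of the whole table were called in PTZ+Q808 against control, and Nop58 had an adjusted p of 0.145. All 11 calls also ended with the replicate number as a block (adjusted p from 0.0594 to 0.148). Of the 11, 9 ended without control 2 and PTZ+Q808 3 together, 5 with no filter, 5 with only the 2 groups fitted, 4 with centring on the members, 3 with Ttr as a covariate, and 1 each with equal totals and quantile normalization. Summed meninges and fibroblast markers were 53.4 to 71.5 FPKM in control, 135, 125 and 135 in PTZ+Q808 1, 2 and 3, and 52.7 and 67.8 in PTZ+Q808 4 and 5, and their part in these calls was not tested.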

How the data were processed

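Hippocampal RNA was sequenced by the authors as 14 libraries, and the deposited values are FPKM per gene and sample, as the deposited tables are titled. Per the submitters' processing notes, the tools were HISAT2 and Bowtie2, Trimmomatic, SAMtools, HTSeq, StringTie, Cufflinks and DESeq; their roles, versions and the genome build are not given in the sources used here. Raw totals are not known, so no counting interval is given. Relative depth came from the commonest ratio to control 1 among genes with FPKM under 1 in both libraries. That ratio was shared by 347 to 435 of the 3618 to 3843 genes compared.

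Genes with FPKM of at least 1 in at least 4 libraries were tested on log2(FPKM + 1) with limma 3.58.1 (R 4.3.3), a mean-dependent prior and all 3 groups in 1 fit (11 residual degrees of freedom). Tests were two-sided with Benjamini-Hochberg adjustment over 12744 genes and a threshold of 0.05. The fit was also run on simulated data, the outcome of which is not reported here. The pseudocount of 1 understates changes of low genes. Log2 changes carry standard errors.

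The members and all lists were chosen with earlier results of these data known. Named genes were those called, the 3 of smallest p in each direction per comparison, the 5 highest and 5 lowest means, members without overlap, and list genes called; Rpl30, Rplp2, the placeholder copies and other genes given with values were singled out after their values were seen. Some genes that met these rules are not reported here. Promoter windows came from RefSeq (GRCr8). A copy was any LOC or RGD symbol whose description named the same cytosolic ribosomal protein, even where RefSeq names it otherwise. Alternatives were a pseudocount of 0.1, no filter, a minimum of 5 FPKM, 3 scalings, a fit of 2 groups, a robust prior, library weights, the replicate block, terms for Y-linked and Ttr transcripts, omissions of libraries, thresholds of 0.01 and 0.1, and, after seeing the data, sums with copies and centring on the members.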

Additional observations from a re-analysis of the deposited data

Results flagged for a closer look

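Within each group, 81 genes were screened for a single library far from the others, by Dixon's criterion at its 95% level. Of 243 groups screened 20 met it (8.23%), where chance gives about 1 in 20 (5%), and the members share libraries, so these are not independent events.

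PTZ+Q808 2 was far above its group in 6 genes, among them Rpl15 at 109, Rpl18 at 131, Rplp0 at 407, Rps10 at 278 and Rps28 at 174 FPKM. Control 2, which held striatal transcripts, was far above its group in 7 genes, with Rpl36a at 112, Rpl37a at 250, Rpl41 at 894, Rps19 at 171, Rps20 at 273, Rps3 at 435 and Rps3a at 308 FPKM. PTZ 4 stood above its group in Rpl3 at 351 and Rps18 at 320 FPKM. PTZ+Q808 4 stood below its group in Rpl24 at 243 FPKM. Control 3 stood apart in Rps19bp1 at 25.7 FPKM.

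Rplp2 met the criterion in every group, with control 4 at 74.9, PTZ 2 at 73.2 and PTZ+Q808 1 at 56.0 FPKM.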

How the results depend on the processing

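Over 32 alternatives, 14 of which left out a single library, the number of members called stayed at 0 in PTZ against control and in PTZ+Q808 against PTZ. In PTZ+Q808 against control it was 1 with weights per library (Rps3a, adjusted p = 0.0389) and 0 otherwise, also without any single library. Directions were counted for the other named member changes, without Rps10, Rps24, Rpl22l1, Rpl21 against control, and the list genes. Among those counted no member reversed, and 606 of 607 values kept their direction and side of the threshold. As no counted member was called in the main fit, its side could change only by becoming called. Leaving out single libraries, the median log2 change of the members ran from -0.07 to 0.00, from 0.01 to 0.07 and from -0.03 to 0.02 in the order PTZ against control, PTZ+Q808 against PTZ and PTZ+Q808 against control. Without PTZ 2 the first was 0.003, against -0.04 with all libraries, and median-of-ratios scaling put the last at 0.01, against -0.01. The sign of these 2 medians is thus not determined. Counts of called genes in the whole table in PTZ+Q808 against control ran from 0 to 1100, 17 to 673 when single libraries were left out. They were 199 with only the 2 groups compared, 190 without a filter, 564 with a term for Y-linked transcripts, 57 without control 2 and PTZ+Q808 3, 0 without the 3 libraries lowest in Ttr, 15 and 980 at thresholds of 0.01 and 0.1, and 1100 with library weights. Members at an unadjusted p under 0.05 were 14 under equal totals, 14 under quantile normalization and 18 under centring on the members. The last setting removes their shared library variation by construction.

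The replicate block left 0 members called in all 3 comparisons and 4 genes of the whole table in PTZ+Q808 against control. The numbers were not taken as a pairing because no source ties them to animals. Deviations from the group means correlated with r from -0.28 to 0.14 over 13 same-numbered pairs of libraries from different groups. Over 52 pairs with different numbers r ran from -0.45 to 0.39. The libraries also differ in tissue content, so these values cannot decide whether the numbers pair animals.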

Other observations

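The summed level of 2 small lists was also read by group, after the values had been seen and without a test. The 9 nucleolar scaffold genes, among them Ncl and Npm1, took 0.0802% ± 0.00296 of all FPKM in control (SD, n = 4), against 0.0838% ± 0.00553 for PTZ (n = 5) and 0.0953% ± 0.00839 for PTZ+Q808 (n = 5). Ncl and Npm1 made up most of the difference, Nhp2 went from a mean of 4.86 to 14.9 FPKM without being called (adjusted p = 0.370), and the list's median log2 change was 0.03 with 6 of 9 genes higher. All PTZ+Q808 libraries (0.0866% to 0.108%) lay above all controls (0.0779% to 0.0845%). The 3 stalk genes took 0.291% ± 0.0216, 0.269% ± 0.0185 and 0.257% ± 0.0139 in the same order of groups, and their ranges overlapped only slightly between control (from 0.270%) and PTZ+Q808 (up to 0.271%). Control 2, which held striatal transcripts, had the highest Rplp1 of all libraries (909 FPKM). These shares also hold the high Rplp2 of control 4, PTZ 2 and PTZ+Q808 1. The part of these libraries in the order of groups was not tested.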
